A study of Homo sapiens with 15 samples.

Results

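Wnt ligands and their secreted antagonists were followed through the cardiac differentiation of H1 cells by bulk RNA-seq. The genes were 10 in number, out of 48777 in the gene table, and were taken by symbol: the ligands WNT2, WNT2B, WNT3, WNT5A and WNT11, and the antagonists DKK1, SFRP1, SFRP2, SFRP5 and FRZB. H1 is an established and here unmodified human embryonic stem cell line, so that all libraries descend from the same line. Cells were plated on laminin LN-521 with LN-221 and were collected on days 0, 4, 9, 11 and 20, and each day is represented by 3 biological replicates, giving 15 libraries. In the sample table that accompanies the counts, day 0 cells are listed on LN-521 only. Later media contained CHIR99021, an inhibitor of GSK3 that switches on Wnt/β-catenin signalling, and then IWP2, an inhibitor of the enzyme PORCN that stops Wnt ligands from being secreted. The labels hold a pair of schedules that differ. In the treatment text CHIR99021 was given for 24 hours from day 4, the medium was changed on day 5 and IWP2 was present for 2 days from day 7, whereas in the growth text CHIR99021 was in the medium of days 1 and 3 and IWP2 in that of day 5. By the first schedule the day 4 libraries stand at the start of CHIR99021 and by the second they come after it, and the schedules cannot be told apart from the labels. The methods of the paper give the first schedule, with CHIR99021 on day 4 and IWP2 from day 7. The libraries are labelled day 9, and the results of the paper also describe bulk RNA-seq of days 9 and 11, whereas its methods list day 7. Days and inhibitor treatment changed together, and no untreated cells were sampled alongside the later days.

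Wnt ligands are lipid-modified secreted proteins that bind Frizzled receptors on neighbouring cells. With the co-receptors LRP5 and LRP6 they stabilise β-catenin, which acts on target genes with TCF/LEF factors, and with other receptors they act on cell shape and movement without β-catenin. In heart development, Wnt/β-catenin signalling first promotes the formation of mesoderm and must then be held back for cardiac fate, while the non-canonical ligands WNT5A and WNT11 are linked to the cardiac progenitor stage. Antagonists of the SFRP family, to which FRZB belongs, resemble the Frizzled ligand-binding domain and capture Wnt proteins, whereas DKK1 blocks LRP5 and LRP6.

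The labelled stages were checked with marker genes. The summed TPM (a level scaled by gene length and library) of 5 pluripotency genes was between 5691 and 7898 on day 0 and between 90.1 and 129 on day 20. That of 5 cardiomyocyte genes was between 8.92 and 13.1 on day 0 and between 4806 and 21100 on day 20, and 5 endoderm and yolk sac genes reached between 609 and 18300 on day 20. No pluripotency, cardiomyocyte or endoderm gene of these lists was at 0 in the mean of any day. Library totals were between 11990302 and 33469703 counts. A day 20 library stood apart, the second one from plate 2, labelled Plate_2_3. Of 252 long genes that had at most 2 counts over days 0 to 11, 99.6% had a read there against 16.7% in the other plate 2 library and 67.1% in the plate 6 library of that day, and its RNA integrity number was 6.1. Their median there was 7.19 reads per kilobase, a level equal to 35.2% of the WNT2 count, 34.6% of the WNT2B count and 26.4% of the WNT3 count of the library. For the other 7 genes the share was at most 13.5%. Tests that rest on day 20 are therefore given with and without it. A very short gene also weighed on TPM. This gene, whose values correspond to a length of 57 bases, took up 20.0% of all TPM in day 0 replicate 3 and 17.0% in the day 9 plate 2 library, which lowers the TPM of other genes there but not their counts.

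SFRP1 and WNT5A had the highest mean TPM of the 5 antagonists and the 5 ligands at the start, and the balance between both groups shifted by day 9. The summed TPM of the 5 ligands was between 6.38 and 8.39 on day 0, between 7.83 and 8.83 on day 4, between 98.7 and 124.5 on day 9, between 172.3 and 268.9 on day 11 and between 118.3 and 192.4 on day 20. The summed TPM of the 5 antagonists was between 1057 and 1382 on day 0 and between 1117 and 1324 on day 4. It was between 422 and 1084 on day 9, between 421 and 868 on day 11 and between 281 and 1269 on day 20. The 5 antagonists thus exceeded the 5 ligands in every library, by 126- to 217-fold on day 0, 126- to 166-fold on day 4, 3.47- to 8.71-fold on day 9, 1.57- to 5.04-fold on day 11 and 2.38- to 6.60-fold on day 20. Over all 14 secreted antagonists and all 19 WNT genes the ratio was lower at the start, between 42.2 and 109.9 on day 0 and between 43.9 and 51.9 on day 4, and it was between 2.77 and 6.96 on day 9, 1.98 and 4.68 on day 11, and 2.22 and 5.66 on day 20. In the second plate 2 library of day 20 both sums (140.2 and 383 TPM) and the ratio of the 5 antagonists to the 5 ligands (2.73) lay between those of the other day 20 libraries. From day 4 to day 9 the ratio of the 5 to the 5 fell by 4.58 on the log2 scale and the libraries of these days were separate (p = 0.1 by two-sided exact permutation, the lowest value that 3 against 3 allow). The replicates overlapped in this ratio between days 0 and 4, 9 and 11, and 11 and 20 (log2 differences −0.19, −1.31 and 0.48, exact permutation p = 0.5, 0.2 and 0.5). In bulk samples, fewer cells of a type and less RNA per cell cannot be told apart.

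**Figure D1:**
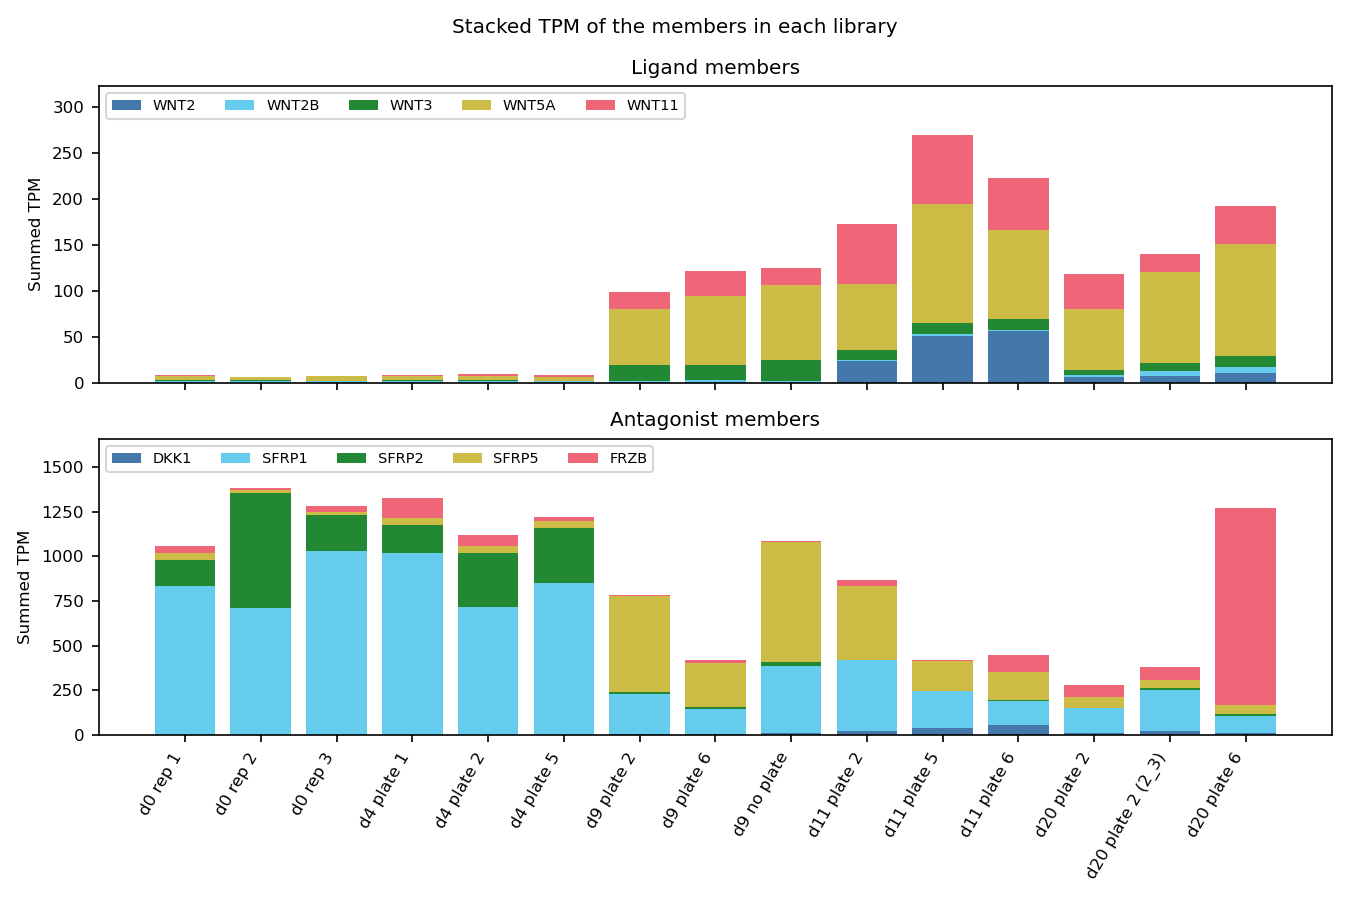
Stacked TPM of the 5 ligands (upper panel) and the 5 antagonists (lower panel) in each of the 15 libraries, with linear axes of different scale starting at 0. Ligand sums were at most 8.83 TPM up to day 4 and at least 98.7 TPM from day 9, and the lower panel passes from SFRP1 and SFRP2 (days 0 and 4) to SFRP5 (day 9) and to FRZB in the day 20 plate 6 library.

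Among the 5 ligands WNT5A had the highest TPM in all 15 libraries. Of the other WNT genes, WNT4 had a higher mean on day 0 (5.41 ± 3.93 against 4.42 ± 0.91 TPM, SD, n = 3). On day 4, WNT4 (5.87 to 12.2 TPM) and WNT9A (4.945 to 5.444 TPM) were above every WNT5A value. The share of WNT5A in the sum of the 5 ligands was between 41.5% and 48.2% on day 11, when WNT11 held 25.4% to 37.9% and WNT2 13.3% to 25.04%. Among the 5 antagonists SFRP1 was highest in all 3 libraries of day 0 and of day 4, SFRP5 in all 3 of day 9, SFRP5 in 2 and SFRP1 in 1 of day 11, and SFRP1 in 2 and FRZB in 1 of day 20. SFRP1 held between 51.4% and 80.5% of the antagonist sum on day 0. SFRP5 held between 58.9% and 68.5% of it on day 9. The 5 ligands accounted for 26.8% to 48.4% of the TPM of all 19 human WNT genes on days 0 and 4, for 74.9% to 90.4% on days 9 and 11, and for 51.9% to 79.7% on day 20.

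The upstream sequences of DKK1 and SFRP5 are shown because both antagonists rose from day 4 to day 9 and the search below matched in DKK1 but not in SFRP5. Both lie on chromosome 10. Each line gives the 250 bases before the RefSeq transcript start on GRCh38.p14, 5′ to 3′ on the strand of the gene, at chr10:52314031-52314280 (plus strand) and chr10:97772000-97772249 (minus strand), with TCF/LEF motif letters in capitals.
DKK1: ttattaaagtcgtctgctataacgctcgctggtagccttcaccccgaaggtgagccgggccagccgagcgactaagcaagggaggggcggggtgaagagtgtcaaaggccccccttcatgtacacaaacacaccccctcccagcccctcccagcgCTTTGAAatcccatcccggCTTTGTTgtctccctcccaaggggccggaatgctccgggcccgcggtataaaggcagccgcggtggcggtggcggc
SFRP5: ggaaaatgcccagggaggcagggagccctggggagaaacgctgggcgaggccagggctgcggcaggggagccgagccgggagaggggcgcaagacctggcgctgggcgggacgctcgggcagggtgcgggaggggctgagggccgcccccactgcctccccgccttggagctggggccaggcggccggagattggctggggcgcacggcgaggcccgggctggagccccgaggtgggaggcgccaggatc
The letters searched on both strands were CTTTGAA and CTTTGAT, forms of the site to which TCF/LEF factors bind, and the related forms CTTTGTA and CTTTGTT. RefSeq promoter entries in use covered 8 of the 10 genes with 10 start sites, and of these 10 windows only that of DKK1 held a match. Its matches were CTTTGAA, beginning 95 bases before the start, and CTTTGTT, beginning 76 bases before it, both on the strand of the gene and without overlap. At least 1 match was present in 12% of 35116 promoters of the same length, and 2 or more in 1.21%. The letters TATAAA were found in the last 60 bases before the DKK1 start, as in 2.78% of all promoters, and not before that of SFRP5. The 250 bases held 18 CG pairs in DKK1 and 21 in SFRP5, with a GC content of 62.8% and 76.8% against a median of 58.0% over all promoters. A match of letters describes the sequence alone, and a window without one says nothing of factor binding.

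From day 0 to day 4 none of these genes passed the threshold. Counts were compared between days with edgeR's quasi-likelihood test over all genes, and a gene was called at a Benjamini-Hochberg adjusted p under 0.05. The edgeR test called 0 of the 9 genes tested, as of all genes (0%), where 741 genes had an unadjusted p under 0.05; DESeq2 and limma also called 0. WNT2 did not pass the filter on low counts, with 2 counts in the 3 libraries of day 0 and 1 count in those of day 4. WNT11 TPM was 0.90, 0.50 and 0.54 on day 0 and 1.26, 1.47 and 1.62 on day 4 (log2 fold change 1.10, SE 0.37, edgeR adjusted p = 0.885). SFRP5 TPM was 35.7, 16.9 and 19.4 on day 0 and 37.0, 35.8 and 35.1 on day 4 (log2 fold change 0.53, SE 0.24, edgeR adjusted p = 0.885). The TPM of the days was separate for WNT11 and overlapped for SFRP5.

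From day 4 to day 9 the ligands WNT3, WNT5A and WNT11 and the antagonists DKK1 and SFRP5 rose, while SFRP1, SFRP2 and FRZB fell. These are 8 of the 9 genes tested, beside 49% of all genes called in this comparison (24.3% higher and 24.7% lower), so that calls were common. The median size of the log2 fold change was 3.80 over these 9 genes and 0.57 over all genes.

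**Figure D2:**
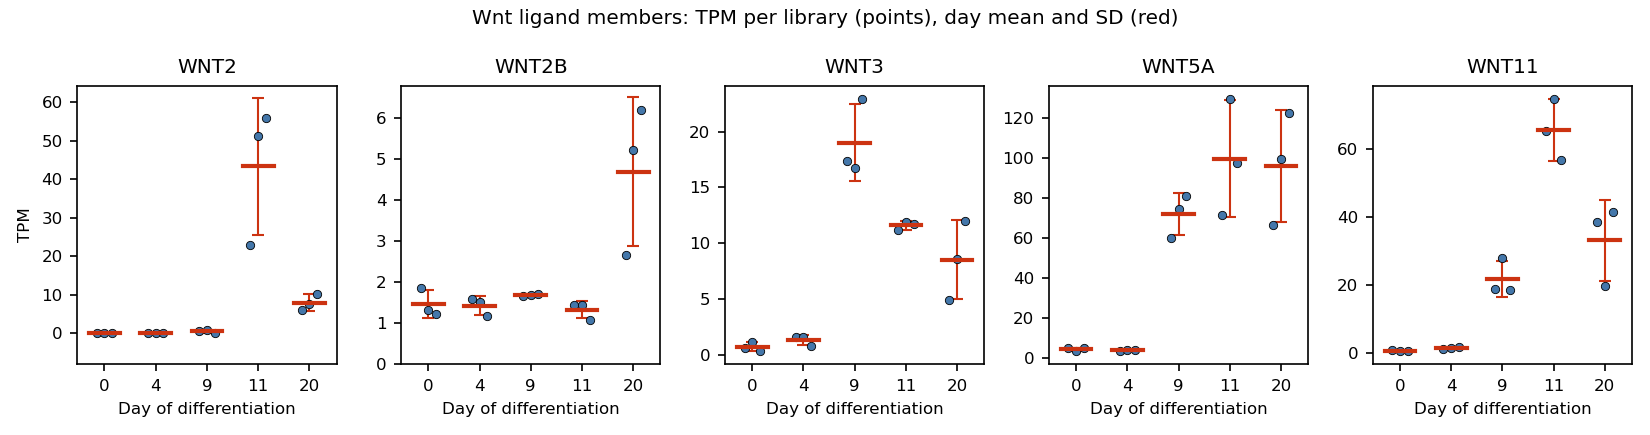
TPM of the 5 ligands by day, with one panel per gene, linear axes, points for the 3 libraries of a day and red bars for the mean with its SD. WNT3 was highest on day 9 and WNT2 and WNT11 on day 11, WNT5A stayed between 60.2 and 129.6 TPM from day 9, and WNT2B exceeded 2 TPM on day 20 alone.

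WNT5A, a mainly non-canonical ligand (chromosome 3, 55465715 to 55490539, minus strand), was the ligand with the largest gain in TPM by day 9. Its TPM was 4.90, 3.37 and 5.00 on day 0, 3.51, 4.19 and 4.18 on day 4, and 60.2 (plate 2), 74.6 (plate 6) and 81.2 (no plate number) on day 9. It was 71.4, 129.6 and 97.7 in plates 2, 5 and 6 on day 11, and 66.3, 99.3 and 122.3 in the plate 2, second plate 2 and plate 6 libraries on day 20. All libraries of days 9, 11 and 20 lay above all of days 0 and 4, while the later days overlapped among themselves. The log2 fold change from day 4 to day 9 was 4.20 (SE 0.15, 18.4-fold, edgeR adjusted p = 9.26e-07). From day 9 to 11 it was 0.41 (SE 0.23, adjusted p = 0.411) and from day 11 to 20 it was −0.17 (SE 0.36, adjusted p = 0.858), both by edgeR and neither past the threshold.

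WNT11, another non-canonical ligand, which takes part in cardiac development (chromosome 11, 76186325 to 76210736, minus strand), rose in a pair of steps. Its TPM was 18.9 (plate 2), 27.8 (plate 6) and 18.5 (no plate number) on day 9, 65.3, 74.8 and 56.7 on day 11, and 38.4, 19.5 and 41.5 on day 20. Day 11 was above every library of the other days, and days 20 and 9 overlapped. The log2 fold change was 3.92 from day 4 to day 9 (SE 0.22, 15.1-fold, edgeR adjusted p = 6.12e-06) and 1.55 from day 9 to day 11 (SE 0.18, 2.92-fold, edgeR adjusted p = 0.0147). From day 11 to day 20 the log2 difference was −1.05 (SE 0.39, edgeR adjusted p = 0.232), although the replicates did not overlap. The exons of WNT11 share 204 bases with a long non-coding RNA on the opposite strand, and whether reads were counted by strand is not given in the sources used here.

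WNT3, a ligand that signals through β-catenin and is needed for the primitive streak (chromosome 17, 46762506 to 46833154, minus strand), had its highest level on day 9. Its TPM was 0.63, 1.19 and 0.42 on day 0, 1.62, 1.67 and 0.82 on day 4, and 17.3 (plate 2), 16.8 (plate 6) and 22.9 (no plate number) on day 9. It was 11.2, 11.9 and 11.8 on day 11, and 4.94, 8.65 and 12.02 on day 20. Day 9 lay above all other days, days 11 and 20 overlapped, and so did days 4 and 0. The rise to day 9 had a log2 fold change of 3.81 (SE 0.29, 14.02-fold, edgeR adjusted p = 2.96e-05). The lower level of day 11 did not pass the threshold (log2 fold change −0.77, SE 0.19, edgeR adjusted p = 0.0858), but did under DESeq2 (adjusted p = 0.0153); over all alternatives the adjusted p was between 0.0153 and 0.470.

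WNT2, a ligand that signals mainly through β-catenin and is expressed in early heart mesoderm (chromosome 7, 117275451 to 117323152, minus strand), was nearly silent until day 9 and peaked on day 11. Its TPM was 0.0960, 0 and 0 on day 0, 0, 0 and 0.0539 on day 4, and 0.61 (plate 2), 0.79 (plate 6) and 0.0900 (no plate number) on day 9. It was 22.97, 51.2 and 55.9 in plates 2, 5 and 6 on day 11, and 5.95, 7.55 and 10.3 on day 20. The days ranked 11, 20, 9, 0 and 4, with no overlap between days 11 and 20 or between days 20 and 9, and overlap among days 9 and 0 and days 0 and 4. On day 9 there were 24 counts in all against 1 on day 4, a ratio of rates of 29.2 (exact 95% interval 4.76 to 1201, counting error only), and WNT2 did not pass the filter on low counts there. In the 6 alternatives that kept it the log2 fold change was between 3.80 and 6.19 and the adjusted p between 0.000657 and 0.0631. From day 9 to day 11 it rose by a log2 fold change of 6.47 (SE 0.66, 88.6-fold, edgeR adjusted p = 0.0141), having passed the filter on low counts through its day 11 level. From day 11 to day 20 it fell by 2.57 on the log2 scale (SE 0.44, 5.93-fold, edgeR adjusted p = 0.0371). Without the second plate 2 library this fall was 2.41 and was no longer called (edgeR adjusted p = 0.0628), and the call was lost in 5 of the 6 fits that left out a library. The exons of WNT2 share 169 bases with CFTR on the opposite strand.

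WNT2B, the paralog of WNT2 (chromosome 1, 112466541 to 112530165, plus strand), was low and level up to day 11. Its TPM stayed between 1.08 and 1.86 in the 12 libraries of days 0 to 11 and was 2.67, 5.22 and 6.19 on day 20. Every day 20 library lay above every earlier one, while the other days all overlapped with their neighbours in rank. The log2 fold change from day 11 to day 20 was 1.70 (SE 0.40, edgeR adjusted p = 0.0795), not called by edgeR but called by DESeq2 and with all 15 libraries in one fit, and that from day 0 to day 20 was 1.43 (SE 0.40, edgeR adjusted p = 0.0303). The latter was lost in 4 of 6 fits that left out a library, namely any day 0 library or the day 20 plate 6 library, and in 3 of 7 other alternatives (adjusted p over all alternatives between 0.00189 and 0.138). Without the second plate 2 library it was 1.49 (edgeR adjusted p = 0.0255). The exons of WNT2B share 2665 bases with ST7L on the opposite strand.

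**Figure D3:**
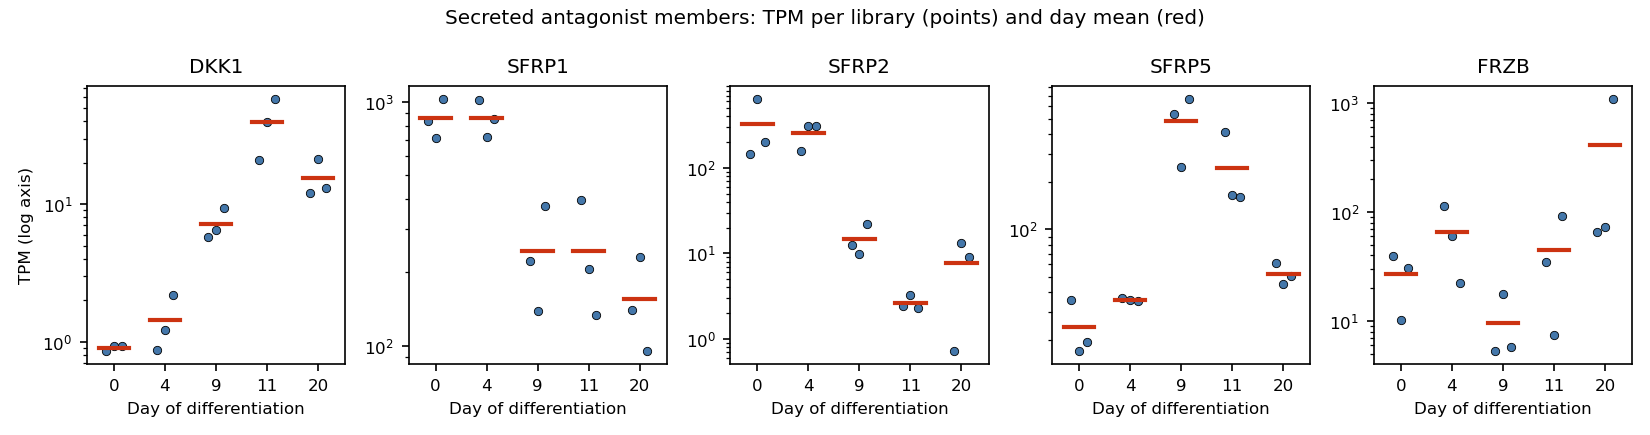
TPM of the 5 antagonists by day on log axes, with one panel per gene, points for the 3 libraries of a day and red bars for the mean. SFRP1 and SFRP2 were lower from day 9 than on days 0 and 4, SFRP5 was highest on day 9, DKK1 was highest in the mean on day 11, and FRZB spread widely within days, up to 1101 TPM in the day 20 plate 6 library.

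DKK1, the LRP5 and LRP6 blocker and a known target gene of β-catenin (chromosome 10, 52314281 to 52318042, plus strand), rose in both steps between days 4 and 11. Its TPM was 0.85, 0.93 and 0.93 on day 0, 0.88, 1.22 and 2.20 on day 4, and 5.78 (plate 2), 6.47 (plate 6) and 9.44 (no plate number) on day 9. It was 20.8, 39.4 and 58.5 in plates 2, 5 and 6 on day 11, and 12.04, 21.4 and 13.1 on day 20. Day 11 was highest in the mean, and days 20, 9 and 4 were separate. In TPM the day 11 plate 2 library (20.79) lay below the second plate 2 library of day 20 (21.38) alone. In CPM every day 11 library (12.26 to 35.21) lay above every day 20 library (6.223 to 7.338). The log2 fold change was 2.38 from day 4 to day 9 (SE 0.37, 5.22-fold, edgeR adjusted p = 0.00103) and 2.39 from day 9 to day 11 (SE 0.41, 5.26-fold, edgeR adjusted p = 0.0330). The second call was kept in only 1 of 6 fits with a library left out. From day 11 to day 20 the difference was −1.53 (SE 0.41, edgeR adjusted p = 0.109). The exons of DKK1 share 227 bases with PRKG1-AS1 on the opposite strand.

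SFRP5, a secreted Frizzled-related antagonist known from the early heart-forming region and foregut (chromosome 10, 97766751 to 97771999, minus strand), became the most abundant antagonist on day 9. Its TPM was 536 (plate 2), 249 (plate 6) and 671 (no plate number) on day 9, 412, 166 and 160.3 in plates 2, 5 and 6 on day 11, and 61.6, 45.1 and 50.5 on day 20. All libraries of days 9 and 11 lay above those of the other days, days 9 and 11 overlapped with each other, and day 20 was still above day 4 in TPM. In CPM the second plate 2 library of day 20 (10.93) lay below every day 4 library (17.12 to 19.94), while the other day 20 libraries (29.45 and 23.49) lay above. The log2 fold change was 3.80 from day 4 to day 9 (SE 0.39, 13.9-fold, edgeR adjusted p = 0.000196), −1.06 from day 9 to day 11 (SE 0.50, edgeR adjusted p = 0.342) and −2.33 from day 11 to day 20 (SE 0.44, edgeR adjusted p = 0.0486). That last fall was called narrowly and was lost in all 6 fits with a library left out (adjusted p between 0.0583 and 0.199). Without the second plate 2 library the log2 fold change was −2.12 with an edgeR adjusted p of 0.0767.

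SFRP1, a secreted antagonist that binds Wnt proteins (chromosome 8, minus strand), fell by day 9 from a very high level. It ranked 123rd among all genes by mean TPM on day 0. Its TPM was 836, 710.4 and 1031 on day 0, 1017, 715 and 847 on day 4, and 223 (plate 2), 139 (plate 6) and 375 (no plate number) on day 9. It was 398, 206 and 133 on day 11, and 140.4, 231 and 94.7 on day 20. The 6 libraries of days 0 and 4 all lay above the other 9, and neighbours in rank overlapped within each of these sets. From day 4 to day 9 it fell by 1.77 on the log2 scale (SE 0.37, 3.40-fold, edgeR adjusted p = 0.00564), a call lost when no filter on low counts was applied (adjusted p = 0.0708). The later steps of −0.08 (SE 0.49) and −0.84 (SE 0.44) were not called. On days 9 and 11, SFRP1 and SFRP5 had their highest and lowest TPM in the same libraries. On day 9 both were highest in the library without a plate number and lowest in plate 6. On day 11 both were highest in plate 2 and lowest in plate 6. In CPM, SFRP5 on day 11 was instead lowest in plate 5 (78.66 against 80.32 in plate 6).

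SFRP2 (chromosome 4, 153780591 to 153789083, minus strand), of the same family, fell in both steps between days 4 and 11. Its TPM was 144.4, 644 and 199 on day 0, 157, 305 and 311 on day 4, and 12.6 (plate 2), 9.82 (plate 6) and 22.0 (no plate number) on day 9. It was 2.43, 3.22 and 2.28 on day 11, and 0.71, 13.3 and 9.17 on day 20. Days 0 and 4 overlapped and lay far above day 9, day 9 lay above day 11, and day 20 ranged from below day 11 to within day 9 in TPM. The second plate 2 library of day 20, which reached into day 9, lay below every day 9 library in CPM (3.565 against 5.123 to 13.0). SFRP2 fell by 4.07 on the log2 scale from day 4 to day 9 (SE 0.40, 16.8-fold, edgeR adjusted p = 0.000168) and again from day 9 to day 11, with a log2 fold change of −2.56 (SE 0.38, 5.88-fold, edgeR adjusted p = 0.0228). Its second fall was called in 2 of 6 fits with a library left out. The summed TPM of the 5 pluripotency genes was between 6358 and 7749 on day 4, between 1731 and 2185 on day 9 and between 934 and 1375 on day 11, and their part in the falls of SFRP1 and SFRP2 was not tested.

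FRZB, the Frizzled-related protein of cartilage and mesenchyme (chromosome 2, 182833275 to 182866637, minus strand), varied widely between replicates. Its TPM was 39.5, 10.2 and 30.6 on day 0, 112.6, 60.3 and 22.5 on day 4, and 5.25 (plate 2), 17.7 (plate 6) and 5.82 (no plate number) on day 9. It was 35.2, 7.43 and 92.9 in plates 2, 5 and 6 on day 11, and 66.3 (plate 2), 72.6 (second plate 2) and 1101 (plate 6) on day 20. All pairs of neighbouring days in rank overlapped, and the SD was 56.1% to 144.1% of the mean. From day 4 to day 9 it fell by 2.80 on the log2 scale (SE 0.65, 6.95-fold, edgeR adjusted p = 0.00896). This call was lost without the day 9 plate 2 library or without the one that has no plate number (highest adjusted p 0.109). It was also lost in 2 of 8 other alternatives, without a filter on low counts and with all 15 libraries in one fit (highest edgeR adjusted p 0.0929). From day 9 to day 11 and from day 11 to day 20 the log2 differences were 2.25 (SE 0.87, edgeR adjusted p = 0.247) and 3.18 (SE 1.33, edgeR adjusted p = 0.284), and without the day 20 plate 6 library the latter was 0.35 (adjusted p = 0.864). Without the second plate 2 library it was 3.70 (edgeR adjusted p = 0.204).

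The plate 6 libraries, highest in FRZB on days 9, 11 and 20, also had the highest summed TPM of mesenchymal genes. The summed TPM of 6 epicardial and mesenchymal genes (WT1, TBX18, TCF21, COL1A1, COL3A1 and POSTN) was 547 (plate 2), 1373 (plate 6) and 595 (no plate number) on day 9, 2498, 937 and 4494 in plates 2, 5 and 6 on day 11, and 2296, 917 and 19150 on day 20. On days 9 and 11 the 3 libraries had the same order in FRZB and in the sum. In TPM, the second plate 2 library of day 20 had slightly more FRZB than the other plate 2 library (72.57 against 66.31) but a lower sum. In CPM it had less FRZB (30.27 against 54.62). COL3A1, a fibrillar collagen, made up most of the sum in the day 20 plate 6 library, with 17010 TPM, where POSTN, a matrix protein of mesenchyme, was at 388 TPM. Other genes of the list did not share this order: TBX18 was lowest in plate 6 on day 20 (9.73 TPM against 13.9 and 15.95), WT1 was higher in plate 2 than in plate 6 on day 11 (42.8 against 24.3 TPM), and TCF21 was lowest in plate 6 on day 9. The summed TPM of the 5 endoderm and yolk sac genes was also highest in plate 6, at 1070.0 on day 9 (471 and 399 in the others), 1640.0 on day 11 (1258 and 668) and 18300 on day 20 (16110 and 609). On days 0 and 4 the sum was between 127 and 292 and consisted almost wholly of COL1A1, with WT1, TBX18 and TCF21 at or near 0, while FRZB was between 10.2 and 112.6. The part of either marker list in the FRZB values was not tested.

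**Figure D4:**
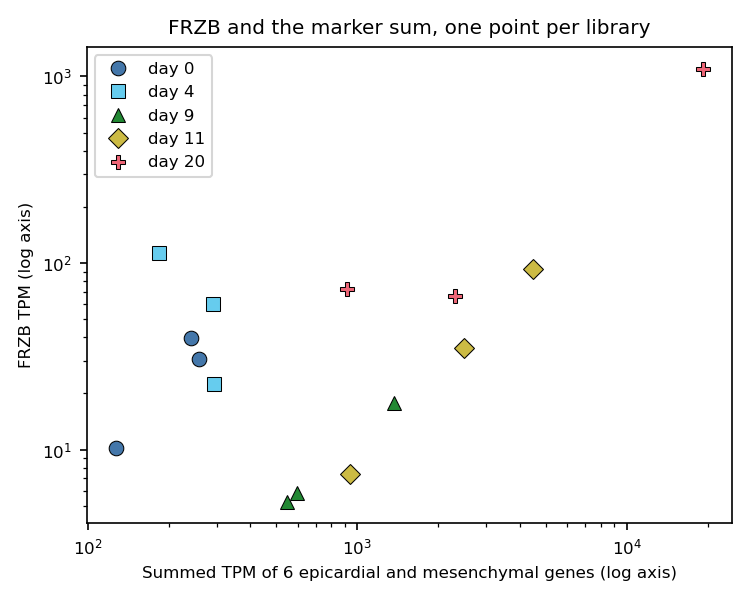
FRZB TPM against the summed TPM of 6 epicardial and mesenchymal genes, both on log axes, with one point per library and the days marked by symbol and colour. The day 20 plate 6 library lies alone at the upper right with 1101 TPM of FRZB and a sum of 19150, while days 0 and 4 lie to the left at sums of at most 292.

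From day 9 to day 11, WNT2, WNT11 and DKK1 rose and SFRP2 fell, which is 4 of 10 genes beside 2.39% of all genes called (1.39% higher and 1% lower). These calls depended on single libraries. WNT2, WNT11, DKK1 and SFRP2 were called in 5, 4, 1 and 2 of the 6 fits that left out a library. Without the day 9 library that has no plate number, 37 genes and 1 of the 10 were called. The largest loss came with the day 9 plate 2 library. Without it no gene of any kind was called by edgeR, although WNT2 (log2 fold change 6.71, adjusted p = 0.102), WNT11 (1.496, adjusted p = 0.102), DKK1 (2.29, adjusted p = 0.179) and SFRP2 (−2.63, adjusted p = 0.118) kept their sizes. Neighbouring comparisons share libraries and are not independent of each other.

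From day 11 to day 20, WNT2 and SFRP5 fell and none of these genes rose, which is 2 of 10 beside 1.55% of all genes called (1.12% higher and 0.435% lower). None of the other genes was called with or without the second plate 2 library. Without it the log2 fold changes were 1.76 for WNT2B, −0.44 for WNT3, −0.06 for WNT5A, −0.70 for WNT11, −1.65 for DKK1, −1.05 for SFRP1 and 0.91 for SFRP2, with edgeR adjusted p-values between 0.0802 and 0.942. Of the remaining genes the antagonist DKK1 and the ligand WNT2B came nearest to the threshold, and both were called by DESeq2 and with all 15 libraries in one fit.

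Between day 0 and day 20 all 5 ligands, DKK1 and FRZB were higher and SFRP1 and SFRP2 lower on day 20, 9 of 10 genes beside 27.4% of all genes called (16.1% higher and 11.3% lower). The log2 fold changes were 4.18 for WNT5A (SE 0.39, edgeR adjusted p = 0.000487), 5.50 for WNT11 (SE 0.56, adjusted p = 0.000652), 3.27 for WNT3 (SE 0.57, adjusted p = 0.00483) and 3.79 for DKK1 (SE 0.45, adjusted p = 0.00103). They were −2.82 for SFRP1 (SE 0.39, edgeR adjusted p = 0.00208) and −5.75 for SFRP2 (SE 1.01, adjusted p = 0.00497). WNT2 had 338 counts on day 20 against 2 on day 0, a ratio of rates of 202 (exact 95% interval 55.4 to 1671, counting error only). It passed the filter on low counts through its day 20 level alone (edgeR adjusted p = 0.00151). WNT11, with 15, 10 and 5 counts on day 0, also passed this filter only through its day 20 level. The calls of these 7 genes were kept in every fit that left out a library, the second plate 2 library included. That of FRZB (log2 fold change 3.82, SE 1.22, edgeR adjusted p = 0.0487) was lost in 4 of these 6 fits and in 5 of 6 other alternatives, and without the day 20 plate 6 library it was 0.98 (adjusted p = 0.232). SFRP5 was not called (0.92, SE 0.36, edgeR adjusted p = 0.0942), but was without the second plate 2 library (1.13, adjusted p = 0.0312).

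**Figure D5:**
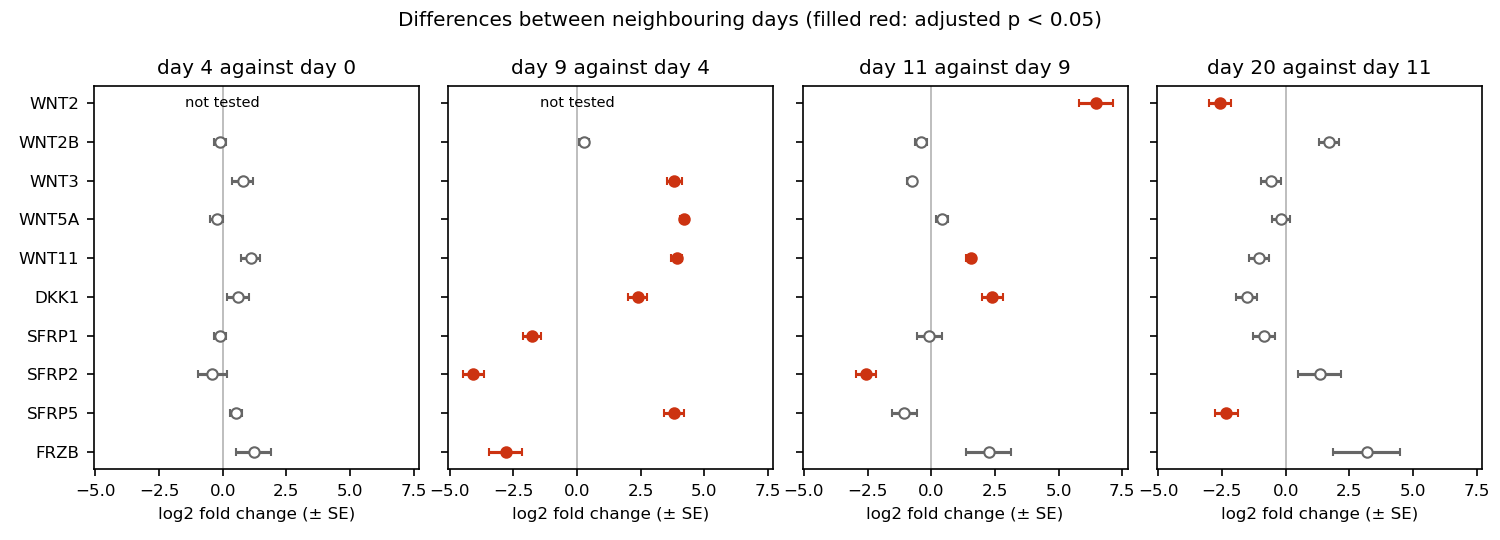
Log2 fold changes with their SE from edgeR for the 10 genes in the comparisons of neighbouring days, in which filled red points passed an adjusted p of 0.05 and open points did not. No point is filled for day 4 against day 0, 8 are for day 9 against day 4, 4 for day 11 against day 9 and 2 for day 20 against day 11, and WNT2 was not tested in the first 2 panels.

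The machinery around the ligands moved most between days 4 and 9 as well. WLS, the carrier that brings lipid-modified Wnt proteins to the cell surface, rose from a mean of 1.89 ± 0.70 TPM (SD, n = 3) to 274 ± 92.6 TPM (log2 fold change 7.18, SE 0.40, edgeR adjusted p = 1.19e-05). PORCN, which attaches the lipid and is the target of IWP2, fell from 24.9 ± 5.55 to 10.9 ± 1.23 TPM (log2 fold change −1.16, SE 0.20, edgeR adjusted p = 0.00167). The carrier and the sum of the 5 ligands were thus both low on day 4 and high on day 9. Later, mean WLS was 190.5 ± 54.1 TPM on day 11 and 131.0 ± 7.96 TPM on day 20 (SD, n = 3). Neither later step of WLS was called (edgeR adjusted p = 0.354 in both). The mean ligand sum was 114.9 TPM on day 9, 221.4 TPM on day 11 and 150.3 TPM on day 20. Of the 14 WNT genes outside the 10, 10 were tested and 4 rose, among them WNT6, WNT5B and WNT8A (log2 fold changes 6.19, 4.53 and 3.24), while WNT9A and WNT4 fell (−1.99 and −1.73). Of the 9 other secreted antagonists, 5 were tested, 1 rose (NOTUM, 0.83) and 2 fell (WIF1, −4.01, and DKK3, −1.51). The median log2 fold change was 0.20 over the tested other WNT genes and 0.21 over the tested other antagonists, against 2.38 over the 9 tested genes described above and 0.01 over all genes.

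Receptors and amplifiers of the signal were called in both directions, in a comparison that called 49% of all genes. Of the 4 R-spondins, secreted enhancers of Wnt signalling, 3 rose, and RSPO3 had a log2 fold change of 6.56. Of 16 tested receptors and co-receptors 5 rose and 5 fell, with FZD2, FZD4 and ROR2, a receptor of WNT5A, among the former (2.98, 2.70 and 1.97) and FZD5, KREMEN2 and FZD7 among the latter (−2.13, −1.68 and −0.80). Of 9 feedback targets of β-catenin, 5 rose and 2 fell. LGR5, LEF1 and SP5 rose (log2 fold changes 8.60, 6.20 and 6.07). Of the inhibitors of the pathway on this list, AXIN2 and NKD2 fell (−1.26 and −0.9998), NKD1 and RNF43 rose (0.84 and 1.30), and ZNRF3 was not called (−0.02). AXIN2 TPM had a mean of 30.6 ± 0.49 on day 4 and 12.7 ± 2.93 on day 9 (SD, n = 3). In the later steps few of these genes passed: WNT8A fell and DKK3 and RSPO3 rose from day 9 to day 11 (−3.52, 1.43 and 1.53), and FZD4 fell from day 11 to day 20 (−1.81).

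The genes most like each of the 10 in profile were sought among 14686 genes by Pearson correlation of log2 CPM over the 15 libraries, which share days and therefore any gene that changed with time. SFRP2 was most like KLRG2, TMEM132B and PRDM14 (r between 0.980 and 0.985), the last a regulator of pluripotency, and SFRP1 was most like BUB1 (r = 0.963), a mitotic checkpoint kinase. WNT5A was most like RELN (r = 0.992), WNT3 like MSX2 (r = 0.988), a homeobox gene, and WNT11 like DOK4 (r = 0.982). WNT2 was most like OIT3 (r = 0.977), DKK1 like MECOM (r = 0.975), a transcription factor, SFRP5 like LRRTM1 (r = 0.966) and WNT2B like MS4A10 (r = 0.929). FRZB had the lowest leading correlation, with EPHA3 (r = 0.907), a receptor tyrosine kinase. Without the second plate 2 library of day 20 all 3 leading genes of WNT5A and of WNT2B were kept. Only 1 of the 3 was kept for WNT3 and for SFRP1, and none for WNT11.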

How the data were processed

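Bulk RNA-seq of 15 libraries (total RNA, stranded kit, paired-end) was analysed, grouped by the labelled day. The authors used STAR 2.5.2b with GRCh38 and the annotation of Ensembl release 79, and deposited raw counts per gene from featureCounts 1.5.1 and TPM; the gene length behind TPM is not given in the sources used here. A deposited sample table gives lanes, a fraction for uniquely mapped reads and a score for RNA integrity. Depth was 11990302 to 33469703 counts per library, median 22867831.

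Days were tested on counts by edgeR 4.0.16 under R 4.3.3 (robust quasi-likelihood test, two-sided, TMM, genes kept by filterByExpr at a count of 10 and a total of 15). Each fit held the 6 libraries of a pair of days without covariates, with Benjamini-Hochberg adjustment over all genes; SE is the log2 fold change divided by the root of F. Single values were compared by exact permutation of samples (scipy 1.17.1). Coordinates and symbols are from GENCODE v44, promoters from RefSeq. On simulated data for day 9 against day 4 (21252 genes), edgeR recovered 79 of 100 genes changed 2-fold and 100 of 100 changed 4-fold, with 6.28% false calls. The simulation took levels and spread from the day 4 libraries alone and changed 200 genes, none of them at low counts. In the data 49% of genes were called and the spread of day 9 also enters, so these rates may not hold there.

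Alternatives were DESeq2 1.42.0, upper-quartile normalization, no filter, a 1 CPM filter on the mean, a joint fit of all 15 libraries, limma 3.58.1 on log2 TPM after adding 1 or 0.1, TPM without the short gene, plate and lane blocks, and each library left out. Named were all 10 genes, up to 3 called genes per direction of each pathway list from day 9 against day 4, PORCN and WLS, and the 3 genes most correlated with each of the 10, of which the text gives some; genes named for the later steps, NKD1, RNF43 and ZNRF3 were chosen after their values were seen. The genes and lists were chosen with earlier results of these data known. KREMEN1 was not analysed here.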

Additional observations from a re-analysis of the deposited data

How the results depend on the processing

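Of 669 log2 fold changes recomputed under the alternatives, 597 kept direction and side of the threshold, 49 lost it, 11 gained it and 12 reversed, all 12 for differences that were not called. From day 0 to day 4, WNT2B reversed without day 0 replicate 1 and without the plate 5 library (−0.21 to 0.034 over leave-one-out fits), SFRP2 without day 0 replicate 2 (−0.78 to 0.43), and SFRP1 under limma on log2 TPM with 1 or 0.1 added (0.0023 in both) and without day 0 replicate 3 or the day 4 plate 2 library (−0.26 to 0.21). From day 9 to day 11, SFRP1 reversed in 3 leave-one-out fits (−0.61 to 0.36). Genes called moved as follows. Day 4 against day 0 gave 64 without a filter, none of them among the 10. Day 9 against day 4 gave 6209 with all 15 libraries in one fit, against 10406. Day 11 against day 9 gave 1674 by DESeq2 and 1016 without a filter against 495, and 0 to 573 with a library left out, with 0 to 3 of the 10. Day 20 against day 11 gave 1871 by DESeq2, 3132 with all libraries and 137 with the lane as a block against 332, and 0 to 510 with a library left out. Of the 10 genes, 4 were called there by DESeq2, 5 with all libraries, 1 with the 1 CPM filter and 0 to 1 with a library left out, against 2. Day 20 against day 0 gave 10785 with all libraries against 6027, and 3128 to 8993 with a library left out. The cause of these shifts was not tested.

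Plate numbers recur between days 9 and 11 (2 pairs, r = 0.14 and 0.36 between deviations across genes) and between days 11 and 20 (r between −0.18 and 0.38), and were treated as shared numbers only. With the plate as a replicate block, fitted on libraries whose plate both days share, 2272 genes were called from day 9 to day 11 and 0 from day 11 to day 20, with 6 of the 10 genes in the former, FRZB (2.53) and SFRP5 (−0.54) gained, and 0 in the latter; SFRP1 (0.35, day 9 to 11) and WNT5A (0.071, day 11 to 20) reversed. The plate fit from day 9 to day 11 rested on its 2 pairs alone, those of plates 2 and 6, and left out the other libraries. No paired analysis was possible for the other comparisons because the days share fewer than 2 plates or have no plate numbers. With 3 replicates per day and the spread of the day 4 libraries, edgeR recovered 79 of 100 genes changed 2-fold in simulated data for day 9 against day 4. WNT2, with at most 2 counts per day up to day 4, did not pass the filter on low counts in the data of that comparison.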
